A study of Mus musculus with 28 samples.

Results

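Rgs6 and Rasgrp1 are regulators of a heterotrimeric and a small G protein pathway that were picked for when their signal appeared in developing mouse amacrine cells. They were the 2 members among 13617 measured genes, and each was read from 1 of the 15170 rows of the expression table, transcript cluster 6796500 for Rgs6 and 6890068 for Rasgrp1. They were selected on their measured levels across the Arc days and between starburst P3 and P18, so those levels are given below as a description, with no test.

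The study measured RNA by expression array in retinal amacrine cells sorted by fluorescence, in samples of 200 cells. Starburst amacrine cells came from mice with the Cre allele 129S6-Chat_tm1(cre)Lowl/J and the red reporter Rosa26-LSL-RFP, and were taken at postnatal day 18 (P18, 3 arrays) and day 3 (P3, 3 arrays). Arc amacrine cells were green through the transgene Tg(Arc-EGFP)194Gsat/Mmcd and gave 1 array for each day of P1 to P20, with a 2nd array at P6, and 1 array at P43. The labels name no treatment. In the starburst mice the Chat-cre driver decides which cells are red, and in the Arc mice the transgene decides which are green, so each population is what its driver marks. The Arc mice were the F2 generation of a cross of FVB/N-Swiss Webster hybrids, which carry a recessive photoreceptor degeneration mutation, to C57BL/6J. The labels give starburst samples the same mixed background, while the growth protocol places all lines other than the Arc line in C57BL/6J. Each sample came from 1 retina. Although biological triplicates are described for the whole study, the Arc line had 1 array per day outside P6, so it was not tested whether an Arc value stands for 1 sample. Cell type, mouse line and fluorophore cannot be told apart. The batch label (B for starburst, A and B for Arc) overlaps them in part and was not used in the fits, so its share in the differences was not tested.

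A G protein coupled receptor switches on a G protein by loading its alpha subunit with GTP, and RGS proteins end the signal by speeding GTP hydrolysis. RGS6 belongs to the R7 family with RGS7, RGS9 and RGS11, which act on alpha subunits of the Gi/o class, are unstable without the beta subunit Gβ5 and are held at membranes by anchor proteins such as R7BP. RasGRP1 works on the small GTPase Ras in the opposite sense: it loads Ras with GTP after the lipid diacylglycerol, made by phospholipase C, has brought it to the membrane. RasGRP1 is best known from T cells and RGS6 from the heart, where it ends the signal of the muscarinic M2 receptor. Starburst cells are the cholinergic amacrine neurons of the retina.

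Both genes have a CpG-rich promoter. The 250 bases before 1 RefSeq transcript start of each gene are shown because a promoter is the stretch nearest to the onset described here. They come from RefSeq (build GRCm38.p6, whereas the labels name mm8 for the arrays) and run 5′ to 3′ along the gene's strand, with an E-box (CANNTG, the letters bound by basic helix-loop-helix factors) in capitals. The Rgs6 window is chr12:82617249-82617498 on the plus strand, which lies inside the annotated gene, ahead of a later transcript start than the gene's first, and the Rasgrp1 window is chr2:117342878-117343127 on the minus strand.
Rgs6: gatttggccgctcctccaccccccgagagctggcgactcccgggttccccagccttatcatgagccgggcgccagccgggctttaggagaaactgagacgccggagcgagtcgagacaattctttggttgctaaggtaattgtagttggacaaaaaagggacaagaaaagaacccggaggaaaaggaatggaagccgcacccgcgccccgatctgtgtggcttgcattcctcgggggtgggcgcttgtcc
Rasgrp1: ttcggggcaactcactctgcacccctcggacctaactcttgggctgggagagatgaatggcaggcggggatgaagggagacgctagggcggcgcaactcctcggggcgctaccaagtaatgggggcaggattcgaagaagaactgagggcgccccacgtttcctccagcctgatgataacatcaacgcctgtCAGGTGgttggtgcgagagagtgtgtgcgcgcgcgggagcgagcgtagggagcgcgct
The Rgs6 window held 59.2% G and C and 18 CpG pairs, and the Rasgrp1 window 62.4% and 21. The median of all mouse promoters in the same table was 52.4% and 6. The single E-box, CAGGTG, began 58 bases before the Rasgrp1 start, position -58. The Rgs6 window held none, while 66.2% of 32851 promoters held at least 1. A GC box (GGGCGG, either strand) occurred in the Rasgrp1 window, as in 32.7% of promoters, and was not found in that of Rgs6. Searched on both strands, neither window held the homeodomain core TAATTA, which 4.8% of promoters held. The same was true of the TATA box (letters TATAAA, in 12.4% of promoters) and of the half-site of cAMP response elements (letters TGACG, in 17.8%). These matches say nothing of which factor binds. Rgs6 spans chromosome 12 from 82616551 to 83162061, a stretch of 545511 bases, and Rasgrp1 spans chromosome 2 from 117279983 to 117342877, a stretch of 62895 bases, in the same build.

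The arrays had medians of 3.53 to 3.64 in starburst and 3.34 to 3.51 in Arc cells on the log2 scale of robust multi-array averaging (RMA), which every level below uses. Replicate starburst arrays correlated at 0.950 to 0.966 and the 2 Arc P6 arrays at 0.974. Background was set at the 95th percentile of the 708 olfactory receptor genes measured, which lay at 3.91 in starburst and 3.47 in Arc cells. The defining starburst gene Chat, the enzyme that makes acetylcholine, read 6.80 to 7.41 in starburst P18, 4.88 to 5.67 in starburst P3 and 2.63 to 3.04 in Arc arrays. The Arc gene read 4.42 to 5.21 in starburst P18, 3.96 to 4.95 in starburst P3 and 5.33 to 6.15 in Arc arrays. Of 11 general amacrine markers the mean per array was 5.86 to 5.96 in starburst P18, 6.03 to 6.13 in starburst P3 and 6.91 to 7.27 over Arc P1 to P20. Rod markers moved with age in both populations: the mean of 9 was 4.10 to 4.31 in starburst P18 against 3.35 to 3.49 in starburst P3, and 4.17 to 4.32 in Arc P17 to P19 against 3.10 to 3.29 in Arc P2 to P4. Gnat1, the rod transducin, averaged 6.14 in starburst P18 and 3.15 in starburst P3, and 7.14 in Arc P17 to P19 and 3.18 in Arc P2 to P4. In such samples of sorted cells, fewer cells of a type and less RNA per cell cannot be told apart, and the part of rod RNA in the age differences below was not tested.

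Rgs6 was read above background in starburst P18 alone. Its level was 6.79, 6.95 and 6.89 in the 3 starburst P18 arrays, against 2.68, 2.34 and 2.45 in the 3 starburst P3 arrays. No P18 array lay within 4 log2 units of a P3 array, and all 3 P3 arrays were under the background. The 22 Arc arrays ran from 2.21 to 2.79 with a median of 2.39 over P1 to P20, and all 22 lay under the Arc background. The highest Arc value was that of P11, at 2.79, and P43, the adult array, read 2.48. P11 stood above its neighbours, with the widest rise between successive days (0.335, to P11) and the widest fall (-0.365, to P12). The arrays scattered around the line with a residual SD of 0.13, and the 2 arrays of P6 differed by 0.18. Starburst P18 averaged 6.87 ± 0.083 and starburst P3 2.49 ± 0.17 (SD, n = 3 each), a difference of 4.38 ± 0.155 (SE) in log2. Taken literally this is 20.9-fold, but the P3 level is background, and against the background itself the P18 level was at least 7.80-fold higher. The same applies below wherever one group lay wholly under background: the log2 difference is the fitted one, and the fold is given as a lower limit against background. Over P1 to P20 the fitted Arc change was 0.00 ± 0.095.

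Rasgrp1 was high at late ages in both populations. In starburst cells its level was 6.55, 6.86 and 6.83 in the 3 P18 arrays, against 4.05, 4.20 and 4.17 in the 3 P3 arrays. The groups did not overlap, and the P3 arrays sat just above the background of 3.91. Starburst P18 averaged 6.75 ± 0.17 and starburst P3 4.14 ± 0.081 (SD, n = 3 each), a difference of 2.61 ± 0.153 (SE), or 6.10-fold. In Arc cells the daily series showed where that signal came in. The first 3 days were level, at 3.69, 3.77 and 3.70 on P1, P2 and P3, close to the Arc background of 3.47. P4 read 4.59 and P5 4.46, and P6 gave 3.97 in one array and 5.34 in the other. That gap of 1.38 between arrays of the same day was wider than any step between the means of successive days. The array with more Rasgrp1 correlated at 0.948 with P43 over all genes, against 0.939 for the other, 0.937 for P5 and 0.947 for P7. P7 read 4.73 and P8 4.94.

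From P9 on, every Arc array lay above 5.73, the midpoint between the P1 to P3 and the P17 to P20 means. Rasgrp1 read 5.81, 5.87, 5.86 and 5.96 on P9, P10, P11 and P12, a plateau with a mean of 5.88 ± 0.059 (SD, n = 4). By then 53.6% of the full gain of 4.03 had been made. P13 to P16 read 6.57, 6.54, 7.07 and 6.79, with a mean of 6.74 ± 0.24 (SD, n = 4). A step of 0.94 to P17 was the widest between successive days, and the widest drop, of -0.28, was the one to P16. P17 to P20 then read 7.73, 7.79, 7.82 and 7.63, and P43 read 7.60, just under P20. Of 19 steps between successive days, 13 went up. Around a line of 0.237 per day the arrays scattered with a residual SD of 0.33. The fitted change over P1 to P20 was 4.50 ± 0.225 (SE), or 22.7-fold along that line. The line overshoots the series: it exceeds the gain of 4.03 between the early and late means, and the arrays themselves ran from 3.69 to 7.82.

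**Figure D1:**
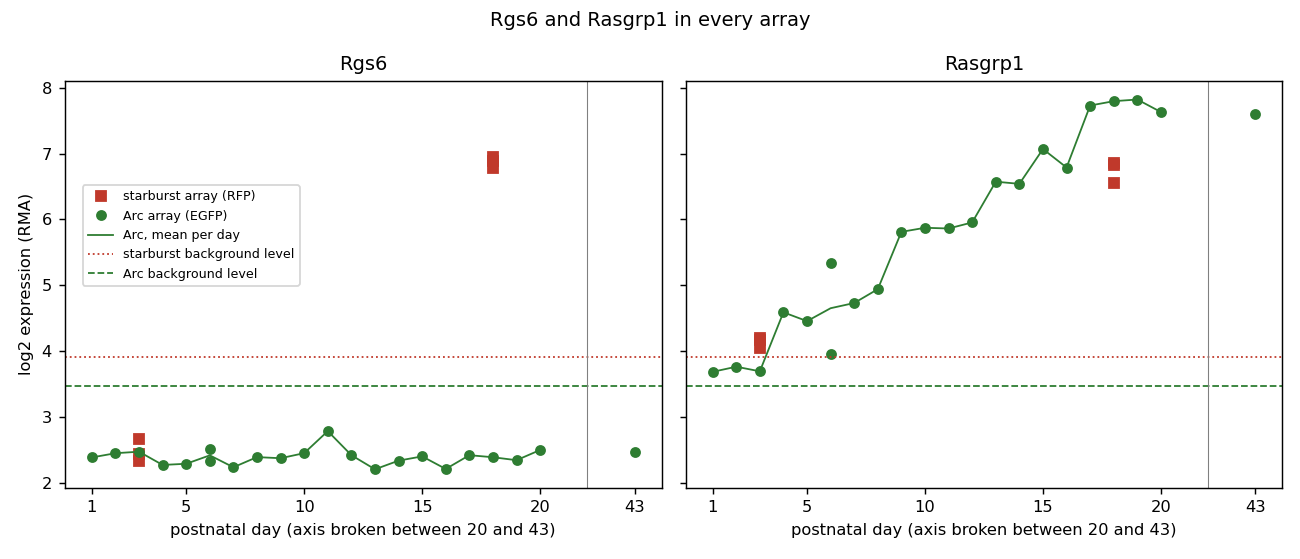
Level of Rgs6 (left) and Rasgrp1 (right) on the log2 RMA scale in every array by postnatal day; red squares are starburst arrays, green circles Arc arrays, the green line joins Arc day means, and the broken lines mark the background of each population. Rgs6 leaves the background in the 3 starburst P18 arrays (6.79 to 6.95), while Rasgrp1 climbs over the Arc days to 7.82 at P19 and reaches 6.55 to 6.86 in starburst P18.

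The plot of both genes by day shows a higher late level in both cell types for Rasgrp1 and in starburst cells alone for Rgs6. Starburst cells were taken at P3 and P18 only, so no day of onset can be read for them. At P18 Rgs6 averaged 6.87 in starburst cells and 2.39 ± 0.038 (SD, n = 3) in Arc P17 to P19, which lay under background, so the starburst level was at least 10.6-fold higher. At P3 both populations were under background, and no fold is given. For Rasgrp1 the P18 difference was -1.03 ± 0.201, with 6.75 in starburst P18 and 7.78 ± 0.047 in Arc P17 to P19, and the P3 difference was 0.12 ± 0.201. The starburst P18 values of Rasgrp1 lay among those of Arc P13 to P16 rather than among those of the same age. Since these levels chose both genes, the differences are given with no test.

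The partners of RGS6 rose with age in both cell types, and its anchor was higher in starburst P18 than in Arc cells of that age. Gnb5, the beta subunit that R7 proteins need, read 5.93, 6.18 and 6.25 in starburst P18, against 4.62, 5.07 and 5.38 in starburst P3. In Arc cells Gnb5 ran from 6.17 to 6.62 over P14 to P20 and from 4.86 to 5.55 over P1 to P6, 7 arrays each. It rose with age by 1.09 ± 0.209 in starburst cells (limma adjusted p = 0.0118) and by 1.68 ± 0.136 over the Arc days (limma adjusted p = 6.22e-10). The groups of each population did not overlap. Rgs7bp, the anchor that ties R7 proteins to the membrane, read 6.34, 6.46 and 6.98 in starburst P18, against 2.98, 3.23 and 3.63 in starburst P3. It ran from 4.31 to 4.96 over Arc P14 to P20 and from 2.87 to 3.82 over Arc P1 to P6. Rgs7bp rose by 3.31 ± 0.226 in starburst (limma adjusted p = 4.18e-05, at least 6.43-fold) and by 2.02 ± 0.194 in Arc cells (limma adjusted p = 1.12e-08). At P18 it was 1.82 ± 0.204 higher in starburst than in Arc cells (limma adjusted p = 2.8e-05), while at P3 the difference was 0.26 ± 0.204 (limma adjusted p = 0.443).

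Gpr158, an orphan receptor that binds RGS7 at the membrane, read 6.33, 6.51 and 6.67 in starburst P18, against 3.12, 3.72 and 3.88 in starburst P3. It ran from 6.61 to 7.41 over Arc P14 to P20 and from 3.88 to 5.23 over Arc P1 to P6. The gene rose in both, by 2.93 ± 0.217 in starburst (limma adjusted p = 6.63e-05, at least 6.03-fold) and 3.17 ± 0.214 in Arc cells (limma adjusted p = 3.06e-11). Rgs9bp, the anchor of RGS9 in photoreceptors, averaged 3.59 in starburst P18 and 3.63 in starburst P3, near background, and did not pass in either age test (limma adjusted p = 0.958 in starburst and 0.403 in Arc cells).

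The sister genes of Rgs6 did not share its pattern. Rgs7, the R7 protein best known from brain and ON bipolar cells, read 4.68, 5.01 and 5.01 in starburst P18, against 5.67, 5.81 and 5.82 in starburst P3. It fell by 0.87 on the log2 scale (SE 0.157, limma adjusted p = 0.00884), the opposite direction to the Rgs6 difference, with no overlap between ages. Rgs7 was nonetheless higher in starburst than in Arc cells at P18, by 1.28 ± 0.21 (limma adjusted p = 0.000829), and at P3, by 1.38 ± 0.21 (limma adjusted p = 0.000784). Rgs11 read 4.15, 4.17 and 4.78 in starburst P18, against 3.14, 3.37 and 3.45 in starburst P3, and rose by 1.05 ± 0.204 (limma adjusted p = 0.0128), at least 1.38-fold against background. It also rose by 0.67 ± 0.135 in Arc cells (limma adjusted p = 0.00043), a call lost when P1 to P16 alone were used. Rgs9 was higher in Arc cells: it ran from 5.33 to 7.10 over the Arc days with a median of 6.56, against 4.99, 5.15 and 5.25 in starburst P18 and 4.60, 4.62 and 4.80 in starburst P3. Over both ages its level in starburst cells lay below that in Arc cells by a log2 difference of -1.77 ± 0.131 (limma adjusted p = 3.92e-07).

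Of the 7 R7 complex genes measured beside Rgs6, of 9 listed, 4 were higher and 1 lower in starburst P18 than in starburst P3, where 8.65% of all genes passed, 4.76% as higher and 3.89% as lower. Over the Arc days 5 were higher and 1 lower, where 37.7% of all genes passed, 14.7% as higher and 23% as lower. The median change of the 7 was 1.05 in starburst and 0.67 in Arc cells, beside -0.06 and -0.13 over all genes. With 1 array per day, the error between Arc samples of the same age was measured at P6 alone, and the Arc tests use the scatter around the line. The Arc calls of Rgs7 (-0.55 ± 0.208, limma adjusted p = 0.0395) and Rgs9 (0.60 ± 0.202, limma adjusted p = 0.0227) were lost under 13 and 6 of 28 alternatives. Between the cell types, 2 of the 7 were higher and 2 lower in starburst than in Arc cells over both ages, where 30.3% of all genes passed, 16.5% as higher and 13.7% as lower. At P3, 1 of the 7 was higher and 2 were lower in starburst P3 than in Arc P2 to P4, where 10.8% of all genes passed, 5.13% as higher and 5.66% as lower. Single arrays ended the Arc calls of Rgs7 and Rgs9, those of P3, P4, P5, P6 (one array) and P15 to P19 for Rgs7 and those of P1, P2 and P18 for Rgs9.

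**Figure D2:**
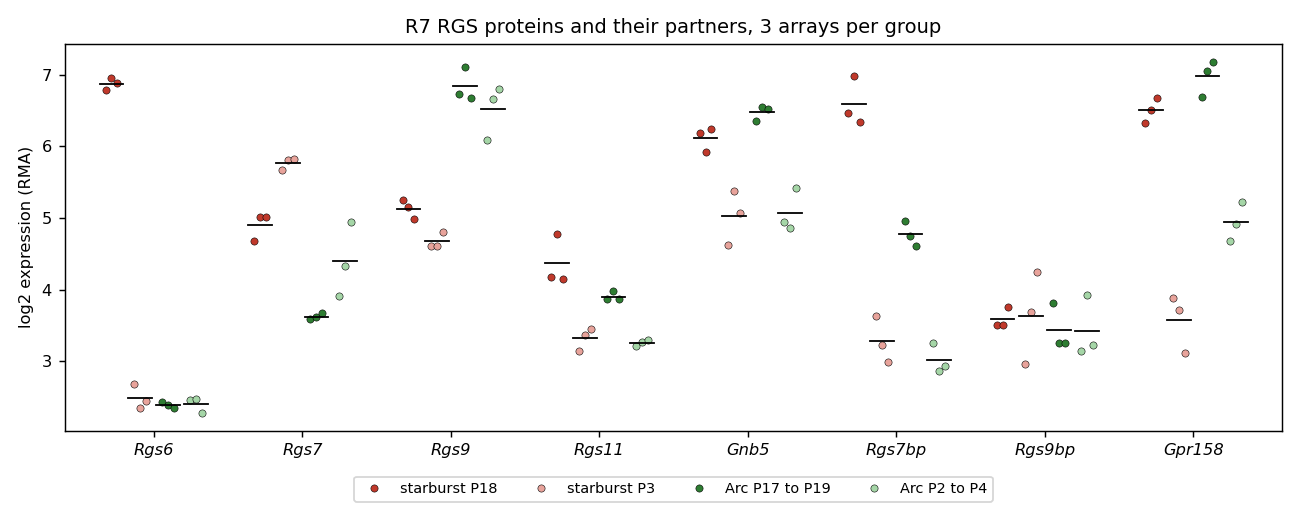
Levels of Rgs6, its sister genes and their partners on the log2 RMA scale, 3 arrays per group (points) with the group mean (bar), for starburst P18, starburst P3, Arc P17 to P19 and Arc P2 to P4. Rgs6 stands at 6.87 in starburst P18 and at 2.39 to 2.49 in the other groups, Rgs7bp rises in both cell types, and Rgs7 is lower in starburst P18 (4.90) than in starburst P3 (5.77).

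As the plot of the R7 genes shows, starburst P18 was the group in which Rgs6 and Rgs7bp were both high, and Gnb5 was high at late ages in both populations. Levels of different genes come from different probes and were not compared with each other.

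Of 18 genes measured on a list of RGS proteins outside the R7 family (21 listed), 3 were higher in starburst P18 than starburst P3. The other 15 did not pass, and 4.76% of all genes were higher. The list also holds Gpsm1, Gpsm2 and Gpsm3, which are not RGS genes. Rgs16, which acts on Gi and Gq, read 5.58, 6.18 and 6.36 in starburst P18, against 3.94, 4.08 and 4.27 in starburst P3, a rise of 1.94 ± 0.216 (limma adjusted p = 0.000612). Like Rgs6 it was set apart by cell type at the late age, with 2.09 ± 0.228 more in starburst P18 than in Arc P17 to P19 (limma adjusted p = 2.3e-05), where 20.7% of all genes passed, 9.69% as higher and 11% as lower. Rgs8, a Gi/o-directed member, rose in both populations, by 1.98 ± 0.27 in starburst (limma adjusted p = 0.00193) and 2.76 ± 0.31 in Arc cells (limma adjusted p = 1.42e-07), and in starburst P18 it lay below Arc P17 to P19 by -1.98 ± 0.32 (limma adjusted p = 0.000708). The last of the 3 starburst calls, Rgs2 (1.30 ± 0.34, limma adjusted p = 0.0491, at least 1.70-fold), was lost under 9 of 13 alternatives, among them the removal of any single starburst array but P18 replicate 2. Over the Arc days 2 were higher, Rgs8 and Rgs17 (1.15 ± 0.17, limma adjusted p = 6.62e-06), and 5 lower. Gpsm1 was among those 5 (-0.515 ± 0.086, limma adjusted p = 4.32e-05). In all, 7 of the 18 listed genes passed, beside 37.7% of all genes.

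Several receptors that drive Gi/o proteins differed widely between the cell types. Of 24 measured Gi/o coupled receptors (30 listed), 4 rose in starburst cells with age and 20 did not pass, beside 4.76% of all genes that rose. Chrm4, the muscarinic M4 receptor, had the starburst pattern given for Rgs6: it read 6.02, 6.30 and 6.42 in starburst P18, against 2.50, 2.62 and 3.03 in starburst P3, and lay between 2.68 and 4.22 in Arc P1 to P20. Its rise of 3.53 ± 0.19 (limma adjusted p = 1.52e-05) was at least 5.06-fold, since P3 lay under background. At P18 it was 3.07 ± 0.27 above Arc P17 to P19 (limma adjusted p = 2.62e-06), where 1 of 3 arrays was above background. Grm8, a group III metabotropic glutamate receptor, rose by 3.40 ± 0.21 (limma adjusted p = 2.7e-05), Grm7 of the same group by 1.71 ± 0.28 (limma adjusted p = 0.00566) and Grm3 of group II by 1.04 ± 0.19 (limma adjusted p = 0.0106). Grm3 was present in starburst cells at both ages, with 6.92, 6.97 and 7.26 in starburst P18 and 5.64, 6.10 and 6.28 in starburst P3, against 1.86 to 2.82 in Arc cells. The difference over both ages was 4.28 ± 0.14 (limma adjusted p = 1.18e-10). Against the Arc background, starburst cells held at least 11.9-fold more at P18 and at least 5.79-fold more at P3.

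Chrm2, the M2 receptor, rose by 2.33 ± 0.35 over the Arc days (limma adjusted p = 1.24e-05). In starburst cells it read 6.73, 7.28 and 8.23 at P18, against 3.75, 5.90 and 6.01 at P3, and the groups did not overlap, but the difference of 2.19 ± 0.59 missed the threshold (limma adjusted p = 0.0524). Cnr1, the cannabinoid receptor, was 2.08 ± 0.12 higher in starburst than in Arc cells over both ages (limma adjusted p = 5.31e-08). Over both ages 9 of the 24 receptors were higher and 3 lower in starburst cells, beside 16.5% and 13.7% of all genes. Over the Arc days 4 were higher and 4 lower, beside 14.7% and 23% of all genes.

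Among the G protein subunits, the gamma subunits Gng7 and Gng2 separated the cell types widely. Gng7 read 7.23, 7.29 and 8.06 in starburst P18 and 5.33, 5.82 and 5.96 in starburst P3, against 2.74 to 3.23 in Arc cells. Gng2 had the opposite order, with 3.97, 4.41 and 4.82 in starburst P18 and 5.68, 5.69 and 5.71 in starburst P3, against 7.77 to 8.56 in Arc cells. The differences over both ages were 3.57 ± 0.15 for Gng7 (limma adjusted p = 1.7e-09) and -3.31 ± 0.15 for Gng2 (limma adjusted p = 3.43e-09). Gng7 lay under background in all Arc arrays, so starburst cells held at least 16.6-fold more at P18 and at least 4.70-fold more at P3. In starburst cells Gng7 rose with age by 1.82 ± 0.25 (limma adjusted p = 0.00218), while Gng2 fell by 1.29 (SE 0.21, limma adjusted p = 0.00561). These were the starburst age calls among 10 measured beta and gamma subunits, beside 8.65% of all genes, with Gnb5 counted in the R7 list. Over both ages 3 of the 10 were higher and 4 lower in starburst than in Arc cells, beside 16.5% and 13.7% of all genes.

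Of 12 alpha subunits, 2 fell in starburst cells and 10 did not pass, beside 3.89% of all genes that fell. Gnaq, the alpha subunit that drives phospholipase C, fell by 1.73 (SE 0.17, limma adjusted p = 0.000279) there and by 1.31 (SE 0.16, limma adjusted p = 4.56e-07) in Arc cells. Gnao1, the main Gi/o alpha subunit of neurons, averaged 8.76 in starburst P18 and 8.42 in starburst P3, which did not pass (limma adjusted p = 0.283). The second starburst call, Gnai3, fell by 1.06 (SE 0.22, limma adjusted p = 0.0171) and was lost without replicate 1 or 2 of either age. Among 11 effectors of Gi/o, Adcy2, an adenylyl cyclase, rose by 2.26 ± 0.19 in starburst (limma adjusted p = 0.000155, at least 4.27-fold) and by 0.77 ± 0.18 in Arc cells (limma adjusted p = 0.00158). Kcnj9, a GIRK potassium channel subunit opened by G beta gamma, rose by 1.72 ± 0.23 in starburst (limma adjusted p = 0.00193) and by 2.33 ± 0.21 in Arc cells (limma adjusted p = 2.91e-09). In all, 3 effectors rose in starburst cells, beside 4.76% of all genes, and 6 rose and 1 fell in Arc cells, beside 14.7% and 23%.

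**Figure D3:**
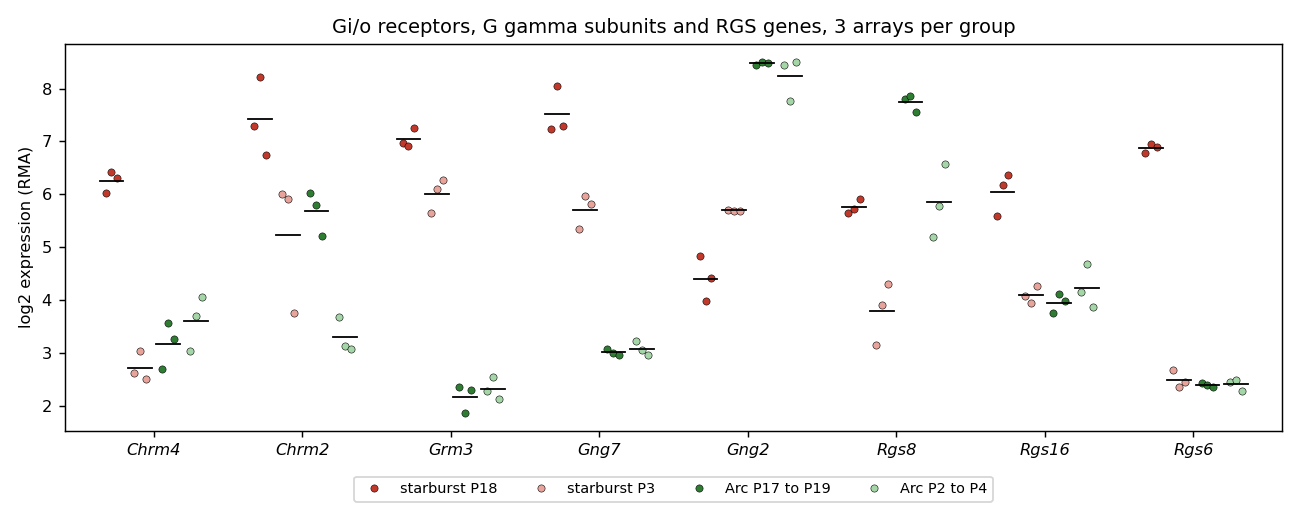
Levels of Gi/o receptors, gamma subunits and RGS genes on the log2 RMA scale, 3 arrays per group (points) with the group mean (bar), for starburst P18, starburst P3, Arc P17 to P19 and Arc P2 to P4. Chrm4, like Rgs6, is high in starburst P18 (6.02 to 6.42) and under background in starburst P3, Grm3 and Gng7 are high in starburst cells at both ages, and Gng2 and Rgs8 are higher in Arc cells.

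In the plot of receptors, gamma subunits and RGS genes, Grm3 and Gng7 were above background in starburst cells at both ages and under it in every Arc array. Chrm4 and Rgs6 were above background in starburst P18 and under it in starburst P3.

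Around Ras, Rasgrp1 was chosen for its age difference, and its 3 sisters stayed near or under background: Rasgrp2 read 2.88 to 2.94 in starburst P18 and 2.93 to 3.01 in starburst P3, Rasgrp3 2.06 to 2.18 and 2.21 to 2.31, and Rasgrp4 3.27 to 3.95 and 3.27 to 3.72, in the same order. None of the 3 passed between starburst ages (limma adjusted p of 0.859, 0.501 and 0.868). Over the Arc days Rasgrp2 fell by 0.38 (SE 0.09, limma adjusted p = 0.00167), and Rasgrp4 had a fitted change of -0.05 (limma adjusted p = 0.73). The Arc change of Rasgrp3 was 0.23 ± 0.08 (limma adjusted p = 0.0278), a call lost with P1 to P16 alone and without P17, P18 or P20.

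Rasgrf1, a Ras exchange factor driven by calcium and calmodulin, rose in Arc cells by 2.83 ± 0.15 (limma adjusted p = 7.05e-13). It ran from 5.30 to 6.00 over Arc P14 to P20 and from 3.48 to 3.86 over Arc P1 to P6, 7 arrays each. In starburst cells it read 3.70, 3.76 and 4.11 at P18, against 3.54, 3.68 and 3.70 at P3 (0.22 ± 0.17, limma adjusted p = 0.517). At P18 it lay below Arc P17 to P19 by -1.89 ± 0.15 (limma adjusted p = 1.07e-06). At the late ages Rasgrp1 and Rasgrf1 were thus both above their early level in Arc cells, and Rasgrp1 was in starburst cells. Rapgef3, the cAMP-driven exchange factor of Rap known as EPAC1, rose in starburst cells by 1.14 ± 0.15 (limma adjusted p = 0.00176, at least 1.58-fold). It was the single starburst call among 8 exchange factors measured beside Rasgrp1, of 14 listed, a share near the 8.65% of all genes. Over the Arc days 3 were higher and 3 lower, beside 14.7% and 23% of all genes.

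Of 11 measured GTPase activating proteins, which switch Ras and Rap off (16 listed), 1 passed between starburst ages, a share near the 8.65% of all genes. It was Sipa1l1, which acts on Rap at synapses. It read 5.65, 5.91 and 6.11 in starburst P18, against 3.98, 4.06 and 4.18 in starburst P3 (1.82 ± 0.17, limma adjusted p = 0.000231). At P18 it was 1.92 ± 0.14 above Arc P17 to P19 (limma adjusted p = 5.26e-07). In Arc cells 5 rose and 3 fell, beside 14.7% and 23% of all genes. Rap1gap, a GTPase activating protein of Rap1, rose by 1.43 ± 0.13 (limma adjusted p = 4.88e-09), and Rasa1, one of Ras, fell by 0.69 (SE 0.15, limma adjusted p = 0.000671).

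Among 16 small GTPases of the Ras family, Diras2, a neuronal Ras-like protein, rose in both, by 3.13 ± 0.32 in starburst (limma adjusted p = 0.000392) and 1.97 ± 0.13 in Arc cells (limma adjusted p = 3.55e-11). Rit2, a Ras-like GTPase of neurons, rose in Arc cells by 2.84 ± 0.21 (limma adjusted p = 1.8e-10) and lay lower in starburst P18 than in Arc P17 to P19 by -2.41 ± 0.33 (limma adjusted p = 0.000192). Nras, one of the Ras proteins that RasGRP1 loads, fell by 1.09 over the Arc days (SE 0.13, limma adjusted p = 3.36e-07). In starburst cells its difference of -0.93 ± 0.26 missed the threshold (limma adjusted p = 0.065). The other starburst call was Diras1 (1.31 ± 0.31, limma adjusted p = 0.0306, at least 1.24-fold), lost with the replicate block and without replicate 2 or 3 of either age. In all, 2 of the 16 rose in starburst cells and 14 did not pass, beside 4.76% of all genes that rose. Over the Arc days 5 rose and 3 fell, beside 14.7% and 23% of all genes.

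Downstream of Ras, Map2k1, the kinase MEK1, rose by 2.10 ± 0.23 in starburst (limma adjusted p = 0.000595) and 2.93 ± 0.20 in Arc cells (limma adjusted p = 4.72e-11). It read 5.89, 6.33 and 6.34 in starburst P18, against 3.62, 4.18 and 4.45 in starburst P3. Dusp7, a phosphatase that switches ERK off, rose by 1.99 ± 0.27 in starburst (limma adjusted p = 0.00179) and by 0.73 ± 0.14 in Arc cells (limma adjusted p = 0.000208). Spry1, an inhibitor of Ras signalling, rose in starburst cells by 1.01 ± 0.15 (limma adjusted p = 0.00269, at least 1.38-fold) and had an Arc change of -0.21 ± 0.15 (limma adjusted p = 0.275). Of 13 measured genes of the Raf, MEK and ERK list (19 listed), these 3 were the starburst calls, beside 8.65% of all genes. In Arc cells 6 rose, beside 14.7% of all genes, and 1, the ERK phosphatase Dusp4, fell by 1.06 (SE 0.21, limma adjusted p = 0.000435, lost with P1 to P16 alone).

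Upstream of RasGRP1, genes of the diacylglycerol side moved in both directions. Of 12 measured phospholipase C genes (14 listed), 2 rose in starburst cells and 10 did not pass, beside 4.76% of all genes that rose. Over the Arc days 3 rose and 5 fell, beside 14.7% and 23% of all genes. Plcl2, a phospholipase C-like gene counted in this list, was among those that fell, by 1.12 (SE 0.13, limma adjusted p = 1.58e-07). Plcb4, a phospholipase C, rose by 1.04 ± 0.15 in starburst (limma adjusted p = 0.00296) and 1.17 ± 0.20 in Arc cells (limma adjusted p = 6.77e-05). Plch1, a phospholipase C of neurons, rose by 2.02 ± 0.19 in Arc cells (limma adjusted p = 8.85e-09), and its starburst call (0.74 ± 0.17, limma adjusted p = 0.0274) was lost without P3 replicate 1 or 3 or P18 replicate 2 or 3. Dgkz, the kinase that removes diacylglycerol and restrains RasGRP1 in T cells, rose by 1.42 ± 0.15 in starburst (limma adjusted p = 0.000432) and 1.26 ± 0.11 in Arc cells (limma adjusted p = 1.26e-09). It was the only call among 5 measured diacylglycerol kinases in either population, beside 8.65% of all genes in starburst and 37.7% in Arc cells.

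Protein kinase C, the other main target of diacylglycerol, gave wide changes too. Prkca read 6.40, 6.68 and 6.83 in starburst P18, against 3.69, 3.76 and 3.94 in starburst P3, and ran from 7.07 to 8.17 over Arc P14 to P20 and from 4.04 to 6.22 over Arc P1 to P6. It rose by 2.83 ± 0.17 in starburst (limma adjusted p = 2.1e-05) and 3.56 ± 0.24 in Arc cells (limma adjusted p = 2.49e-11). Prkca also marks rod bipolar cells. Of the other 9 bipolar markers measured, 4 fell over the Arc days and 5 did not pass, beside 23% of all genes that fell. Trpm1 averaged 2.77 in Arc P17 to P19 and 2.79 in Arc P2 to P4, and Grm6 3.52 and 3.80 in the same order. Between starburst ages 1 of the 9 fell and 8 did not pass, beside 3.89% of all genes that fell. The part of bipolar RNA in the Prkca changes was not tested. Prkce read 6.95, 7.11 and 7.25 in starburst P18, against 3.46, 3.94 and 4.0 in starburst P3, a rise of 3.30 ± 0.18 (limma adjusted p = 1.76e-05), and rose by 2.66 ± 0.28 in Arc cells (limma adjusted p = 6.74e-08). Prkcb differed: it rose in Arc cells by 1.53 ± 0.27 (limma adjusted p = 7.54e-05), had a starburst change of -0.41 ± 0.32 (limma adjusted p = 0.531) and lay below Arc P17 to P19 in starburst P18 by -2.87 ± 0.29 (limma adjusted p = 1.07e-05). Of 7 measured kinases, 2 rose in starburst cells, beside 4.76% of all genes, and 4 rose and 2 fell in Arc cells, beside 14.7% and 23%.

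**Figure D4:**
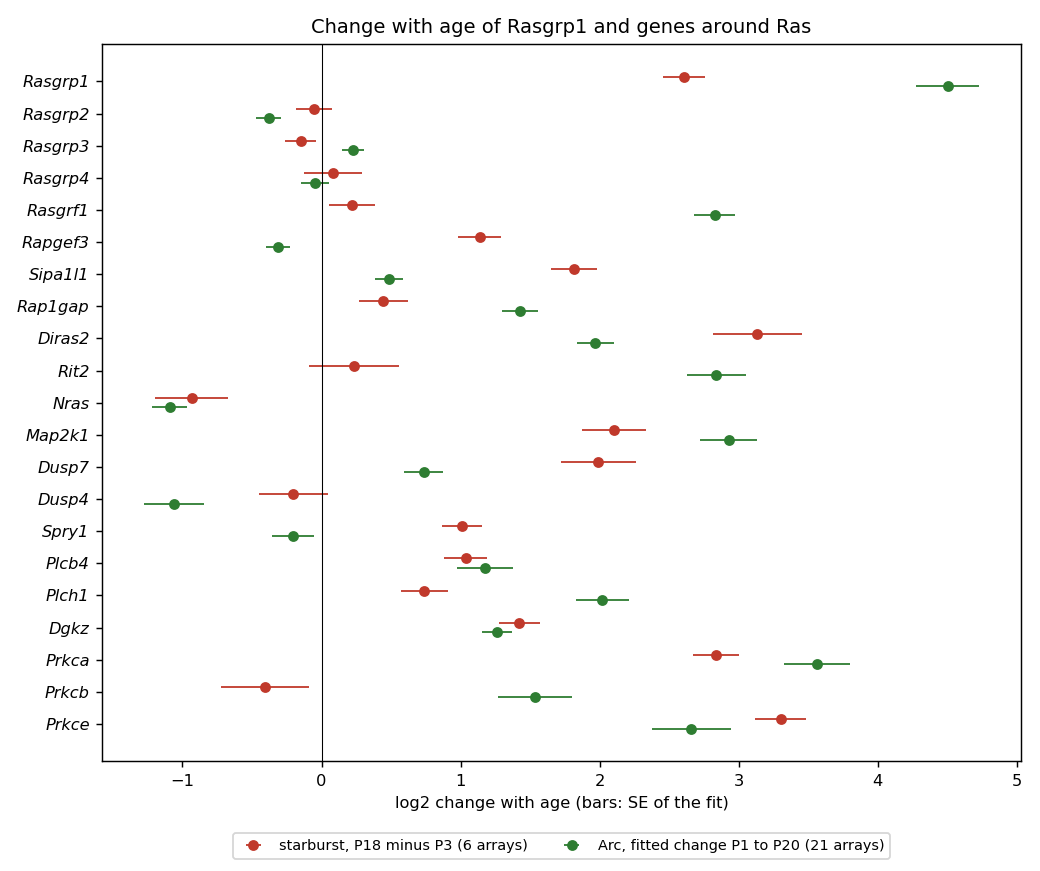
Change with age in log2 units of Rasgrp1 and named genes around Ras, as starburst P18 minus P3 (red, 6 arrays) and as the fitted Arc change over P1 to P20 (green, 21 arrays), with bars for the SE. Rasgrp1 lies at 2.61 in starburst and 4.50 in Arc cells while Rasgrp2, Rasgrp3 and Rasgrp4 lie near 0, Rasgrf1 lies at 0.22 in starburst and 2.83 in Arc cells, and Sipa1l1 lies at 1.82 in starburst and 0.48 in Arc cells.

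The plot of changes around Ras shows that the genes with a large change in both populations, Rasgrp1, Map2k1, Prkca, Prkce, Diras2 and Dgkz, came from several steps of the pathway, and that whether the changes of a gene differ between the populations was not tested. Of the T cell list, 7 genes were measured; their mean per array was 2.70 to 2.98 in starburst P18, 2.78 to 3.06 in starburst P3 and 2.40 to 2.81 over Arc P1 to P20. The T cell receptor chains Cd3d, Cd3e and Cd3g averaged 3.19, 3.03 and 1.98 in starburst P18 and 2.48, 2.75 and 1.98 in Arc P17 to P19, all under background. Cd8a, at 4.0 in starburst P18 and 3.31 in Arc P17 to P19, was the one gene of that list above background in starburst cells.

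Genes with a course like that of Rasgrp1 were ranked by Pearson r among 6699 named genes with an above-median mean, as a description. Over the 22 Arc arrays the highest were Impact (0.984), Adarb1 (0.982), Sparcl1 (0.981), Slc6a17 (0.980), Dtna (0.979) and Stxbp5l (0.977), and the lowest Arhgap33 (-0.974), Dapk1 (-0.963) and Sox4 (-0.963). All of these share the age course of the arrays. Impact, a protein that restrains the kinase GCN2, averaged 7.75 in starburst P18, 5.97 in starburst P3, 8.71 in Arc P17 to P19 and 6.02 in Arc P2 to P4, so it also followed Rasgrp1 in starburst cells. Dtna did not: it averaged 3.97 in starburst P18 and 4.03 in starburst P3, against 6.35 in Arc P17 to P19. Over all 28 arrays the leaders were Impact (0.982), Psap (0.972), Aldoc (0.971), Slc6a17 (0.970), Syn2 (0.968) and Cds2 (0.967).

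For Rgs6 the 28 arrays gave Psd3 (0.966), Wnt2b (0.962), Adgra1 (0.959), Sipa1l1 (0.953), Slc24a3 (0.949) and Dlgap3 (0.940), a ranking that rests on the 3 starburst P18 arrays. Wnt2b, a Wnt ligand, averaged 7.38 in starburst P18 and 5.09 in starburst P3, against 4.32 in Arc P17 to P19 and 4.30 in Arc P2 to P4. Slc24a3, a sodium, potassium and calcium exchanger, averaged 7.58 in starburst P18 and 5.02 in starburst P3, against 5.06 in Arc P17 to P19 and 4.79 in Arc P2 to P4. Over the 22 Arc arrays, where Rgs6 was at background, no gene passed 0.685 (Hebp2, then Klf2 at 0.680 and Plpp7 at 0.667), and the lowest were Nbr1 (-0.709), Ubn2 (-0.709) and Dmtf1 (-0.694).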

How the data were processed

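RNA of 28 samples of sorted amacrine cells was hybridised to expression arrays. The authors made the deposited log2 values with R 2.11.1 and RMA, per the submitters' processing notes, which also name build mm8. Which arrays were normalized together is not given in the sources used here, and no raw scans were used. Of 15170 rows, 13720 had 1 gene symbol, and the row with the highest mean was kept for 102 genes with several, which left 13617 genes with no filter on low values.

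Tests used limma 3.58.1 in R 4.3.3 (eBayes with trend, two-sided, Benjamini-Hochberg over all genes at 0.05): a linear term in day over 21 Arc arrays (P1 to P20), starburst P18 against P3 over 6 arrays, and starburst against Arc cells over 12 arrays, with Arc P17 to P19 and P2 to P4 standing for P18 and P3. For the members the last comparison uses the arrays that chose them, so its p is not read. Lower limits against background were computed after the values were seen. These Arc groups join 3 days, so their spread holds age as well as error. The model was tested on simulated data. The 2 members and all gene lists were chosen with earlier results of these data known. Named genes were the members, the R7 list, Rasgrp2 to Rasgrp4, up to 4 genes with the largest called change per other list and comparison, the 6 most alike and 3 least alike genes, and cell type markers. The olfactory background set was chosen after values were seen. Same-numbered starburst replicates did not deviate together. The number of arrays limits precision, and each p-value sets a difference against the scatter among these arrays. Protein sequences were not used here.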

Additional observations from a re-analysis of the deposited data

Results flagged for a closer look

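For Rapgef3 and Spry1, all 3 starburst P18 arrays lay above the P3 arrays, while the Arc P17 to P19 arrays lay below those of P2 to P4. Rapgef3, the cAMP-driven exchange factor of Rap, differed by 1.14 between starburst P18 and P3, with 4.41 to 4.72 at P18 and 3.38 to 3.50 at P3, while Arc P17 to P19 minus P2 to P4 was -0.27. Spry1, the inhibitor of Ras signalling, differed by 1.01 between starburst P18 and P3 and by -0.23 between the same Arc days. Whether these differences differ between the populations was not tested. Over the Arc days Rapgef3 passed as lower (-0.314 ± 0.086, limma adjusted p = 0.0066). The Arc change of Spry1 did not pass over the Arc days (limma adjusted p = 0.275). All Spry1 values in these 6 Arc arrays were under the background of 3.47, so its Arc direction is among background readings. Most Arc values of Rapgef3 were under that background as well. Over P1 to P20 Rapgef3 ran from 3.06 to 3.56 and Spry1 from 2.67 to 3.71.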

How the results depend on the processing

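No direction turned under any alternative for a value with a call. The starburst minus Arc averages over both ages of the 2 members, whose levels chose them, are given as values. For Rgs6 it was 2.28, and 2.111 to 2.321 under the alternatives. For Rasgrp1 it was -0.46 and kept its negative sign under every alternative. It was -0.2944 (quantile), -0.2121 (cyclic loess), -0.6109 (median centring) and -0.3534 (Arc days 1 to 5 and 16 to 20). Without single arrays it ranged from -0.5374 to -0.3135. The starburst minus Arc value of Rasgrp1 at P18 was -0.68 after quantile normalization, and at P3 it was 0.41 without Arc P4. Of the 6808 genes above the median level, 3422 changed with age in Arc cells, a larger share than the 5137 of all 13617 genes. The count was 1966 with P1 to P16 alone and 4168 to 5605 without single arrays, against 5137. The split of that count turned from 2005 higher and 3132 lower to 2041 and 1763 after cyclic loess, 2423 and 1478 after median centring and 1840 and 2004 after quantile normalization, with the median of all genes at -0.13 before and -0.02 after the first 2 of these. Over both ages the split of 2252 higher and 1872 lower became 1343 and 1652 (quantile), 1393 and 1571 (cyclic loess) and 836 and 2783 (median centring), with the median of all genes at 0.09 before and -0.06 after the last. At P3 the count was 2470 with Arc days 1 to 5 and 16 to 20, and 931 (without Arc P4) to 1507 without single arrays, against 1469. At P18 it was 1586 (without Arc P19) to 2873, against 2820, with 1813 without Arc P18 and 1852 without starburst P18 replicate 1. After median centring the split of 1320 higher and 1500 lower at P18 became 556 and 2206, and that of 698 and 771 at P3 became 409 and 1052. The cause was not tested. A replicate block gave 1060 calls between starburst ages, against 1178. It ended the starburst calls of Rgs2 and Diras1 and of no other named gene. Same-numbered arrays were not paired, since their deviations correlated at 0.046, 0.018 and -0.044. The Rgs6 signal in Arc cells and starburst P3 is limited by background.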

Other observations

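Chosen after the values were seen, the neighbours of both genes in the genome were read for the same comparisons. Sipa1l1, the Rap GTPase activating protein described above, is the protein-coding gene next to Rgs6 on its left in GRCm38.p6, and its r of 0.953 with Rgs6 over 28 arrays placed it among the genes most alike. Dpf3, next on the right, averaged 4.22 in starburst P18 and 4.22 in starburst P3 (limma adjusted p = 0.992). On the Rasgrp1 side, the adjacent genes Fam98b and Thbs1 did not pass in starburst cells (limma adjusted p of 0.0745 and 0.898) or Arc cells (limma adjusted p of 0.251 and 0.0634). Spred1, an inhibitor of Ras signalling one gene beyond Fam98b, rose in Arc cells by 1.01 (limma adjusted p = 0.000172) and did not pass in starburst cells (limma adjusted p = 0.135). Further out on the other side, Gpr176, a receptor, rose by 1.74 in starburst (limma adjusted p = 0.00138) and 0.78 in Arc cells (limma adjusted p = 0.00228).

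Chrm4 read 5.12 in the single Arc P43 array, above all Arc arrays of P1 to P20 (2.68 to 4.22), a value with no replicate. Slc5a7, the choline transporter of starburst cells, had an onset like that of Rgs6, with 7.70 to 8.11 in starburst P18, 2.14 to 2.80 in starburst P3 and 2.16 to 2.72 in Arc cells. Slc18a3, the vesicular acetylcholine transporter, was already at 6.60 to 6.92 in starburst P3, against 7.17 to 7.87 in starburst P18.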
